A study of Mus musculus with 18 samples.

Results

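The nuclear genes for subunits of respiratory chain complexes I, III, IV and V were followed on arrays of differentiating mouse embryonic stem cells exposed to thalidomide. Members were all genes whose symbol begins with Nduf followed by a, b, c, s or v and a digit, or with Uqcr, Cox4 to Cox8 or Atp5. This gave 76 of 22180 measured genes: 33 of complex I, 8 of complex III, 17 of complex IV and 18 of complex V. They include 2 pseudogenes, Uqcrh-ps1 and Atp5c1-ps. Succinate dehydrogenase (complex II) was left out by the rule, and a further 9 symbols, among them Uqcr10, Cox6c, Ndufb4 and Ndufs6, were measured only by probe sets shared with another gene and are no members.

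The 18 arrays hold total RNA from embryoid bodies of C57BL/6 embryonic stem cells, free-floating aggregates in which the cells leave pluripotency. Exposure to 0.25 mM thalidomide, a human teratogen that binds the ubiquitin ligase receptor cereblon, began on day 3 of the embryoid body stage and lasted 24, 48 or 72 h. Controls of the same hours received 0.25% DMSO according to the treatment protocol, while the series description calls them unexposed and their source names count hours after embryoid body formation. Each of the 6 groups has 3 biological replicates. Every exposed culture thus carried thalidomide plus the vehicle, and all cultures came from the same strain. A tag for re-analysis stands in 12 titles and is missing from the 6 thalidomide titles of 48 and 72 h, where it cannot be told apart from exposure.

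The respiratory chain sits in the inner mitochondrial membrane. Complex I takes electrons from NADH, complex III passes them from ubiquinol to cytochrome c, complex IV hands them to oxygen, and the proton gradient that the 3 build drives complex V, the ATP synthase. A few core subunits are encoded by mitochondrial DNA, and the others by nuclear genes, whose proteins are made in the cytosol and imported. Pluripotent cells rely heavily on glycolysis, and cardiac and skeletal muscle, later fates of embryoid body cells, are rich in these complexes.

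Signals are log2 values in which all arrays have nearly the same distribution, so a change is relative to the other transcripts of the array. Array medians ran from 5.367 to 5.462, and arrays of a group correlated across genes at r = 0.992 to 0.996. Of the 76 members, 47 lay among the 5545 brightest genes. None of the 13 mitochondrially encoded subunits was measured by a probe set named here. Over time the control cultures lost pluripotency transcripts and gained cardiac ones: 5 of 8 pluripotency markers fell and 1 rose between 24 and 72 h, and 9 of 10 cardiac markers rose.

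Many respiratory chain transcripts were lower in thalidomide cultures at 24 and 48 h, and no member passed the threshold at 72 h. At 24 h 23 of 76 members fell (30.3%) and 0 rose, with 5.43% of all genes lower and 1.42% higher (6.86% in either direction). Complex I held 14 of the 23 members, with 42.4% of its genes lower, against 12.5% in complex III, 23.5% in complex IV and 22.2% in complex V. At 48 h 14 members fell (18.4%, with 4.23% of all genes lower) and 1, Ndufa11, rose (1.85% of all genes higher, 6.08% in either direction). When the spread was estimated from the arrays compared alone, 2 members passed at 24 h, Ndufb8 and Cox6b2 (0.442% of all genes lower), and 0 at 48 h (0.568% lower). In that fit every other member's call was lost at 24 h, and every member's call, those of Ndufb8 and Cox6b2 included, was lost at 48 h. In a bulk sample, fewer cells of a type and less RNA per cell cannot be told apart.

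The shifts were small and broad. The median log2 change over all members was -0.19 at 24 h, -0.16 at 48 h and -0.0030 at 72 h, beside -0.0063, 0.0050 and 0.0034 over all genes. At 24 h 67 of the 76 members had a value below 0, and on 50 of them every thalidomide array lay below every control array, which held for 15.9% of all genes. The single member whose thalidomide arrays all lay above the controls was Ndufa11 (9.23% of all genes). At 48 h 40 members were separated downwards (16.9% of all genes) and 1 upwards (12.3%).

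Bright genes as a class also shifted downwards. Of the 5545 brightest genes 13.3% fell at 24 h, with a median of -0.075, and 20 of the 47 members among them did (42.6%), with a median of -0.25. Among the 29 dimmer members 3 fell (10.3%), with a median of -0.16, and 2.81% of all dimmer genes did. After cyclic loess normalization the calls over all genes were 57.3% lower, against 79.2% without it, and the members' count at 24 h was 12 lower and 1 higher with a median of -0.14, beside 598 lower and 446 higher of the 22180 genes (2.7% lower). At 48 h the lower share of all calls was 59.4% after cyclic loess, against 69.6%, and the members' count was 8 lower and 1 higher with a median of -0.11, beside 606 lower and 415 higher genes (2.73% lower).

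**Figure D1:**
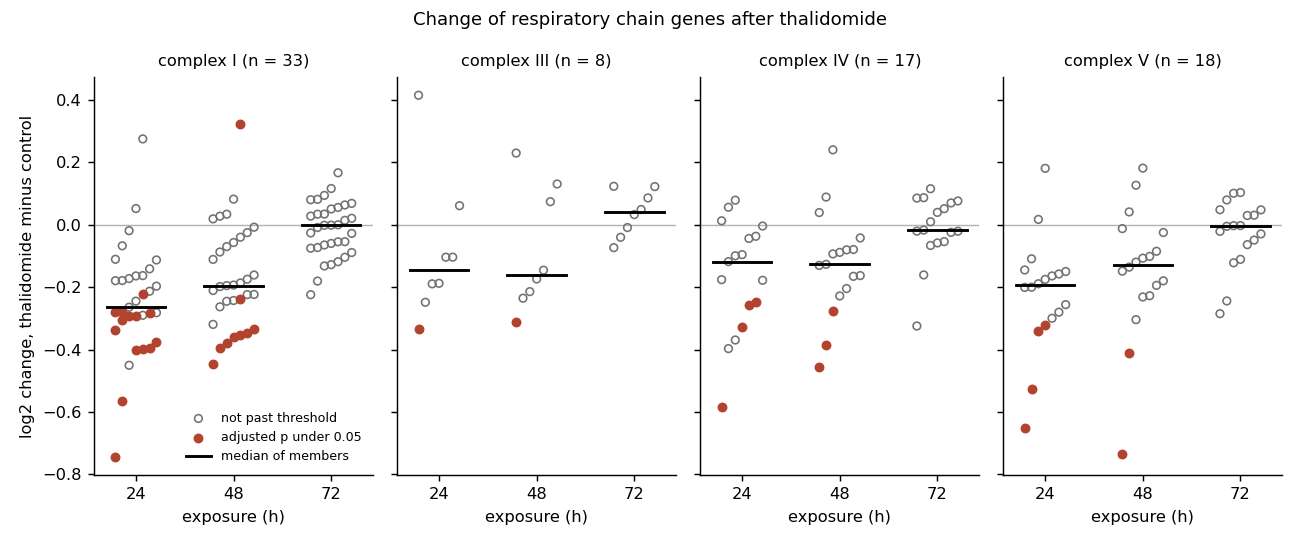
Each point is 1 gene of the complex named above the panel, placed by its log2 change (thalidomide minus control, 3 arrays a group) after 24, 48 or 72 h. Filled points passed an adjusted p of 0.05, open points did not, and bars mark the median, which lay below 0 in all 4 complexes at 24 and 48 h and between -0.02 and 0.04 at 72 h.

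The count at 24 h depends on single arrays: it was 9 without control replicate 1, 11 without control replicate 3 and 11 without thalidomide replicate 1 of that time. The 48 h count of 15 fell to 8, 7 and 7 without control replicate 1, 2 or 3 and to 7 and 6 without thalidomide replicate 2 or 3 of 48 h. The shares of all genes called in these omissions are not given here. The counts thus do not show whether members lost calls more than other genes. At 24 h 1 of 8 pluripotency markers fell (Tdgf1, by 0.75), and the median change of the 8 was 0.06. The mean level of this list, which includes Tdgf1, was 7.02 to 7.16 on thalidomide arrays and 7.16 to 7.25 on control arrays. Of the other lists 0 of 10 cardiac, 0 of 8 blood and endothelial, 0 of 6 neural and 0 of 8 extraembryonic endoderm markers passed. At 48 h 1 of 10 cardiac markers fell (Myl7), with mean levels of 6.28 to 6.49 on thalidomide arrays and 6.30 to 6.66 on control arrays, and none of the other lists had a call. The part of these markers in the members' changes was not tested.

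The promoters of 4 members that fell at both 24 and 48 h are shown because nuclear respiratory genes are known for shared upstream motifs. The 4 were picked by hand from 13 such members and do not stand for the rest. Each stretch holds the 200 bases before the RefSeq transcription start on the coding strand of mouse assembly GRCm38.p6. Capitals mark any match on either strand to the motifs of NRF1 (GCGCA and GCGC with any 1 base between them), ETS family factors (CCGGAAG), YY1 (AAGATGGCG) and the CCAAT box.
Ndufb8, chr19:44555443-44555642, minus strand: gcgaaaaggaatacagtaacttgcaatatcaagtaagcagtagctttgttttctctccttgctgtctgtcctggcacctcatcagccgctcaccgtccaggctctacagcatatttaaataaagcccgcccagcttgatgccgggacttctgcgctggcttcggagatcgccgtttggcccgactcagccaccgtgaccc
Ndufa6, chr15:82354292-82354491, minus strand: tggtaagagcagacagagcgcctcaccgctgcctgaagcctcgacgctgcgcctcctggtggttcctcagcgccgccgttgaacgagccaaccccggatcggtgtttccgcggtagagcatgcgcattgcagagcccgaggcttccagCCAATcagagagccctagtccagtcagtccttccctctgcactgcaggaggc
Ndufa8, chr2:36049339-36049538, minus strand: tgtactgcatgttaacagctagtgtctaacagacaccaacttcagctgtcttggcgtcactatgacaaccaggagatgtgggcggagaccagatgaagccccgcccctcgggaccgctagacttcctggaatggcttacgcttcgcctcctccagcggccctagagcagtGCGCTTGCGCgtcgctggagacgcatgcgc
Atp5h, chr11:115419920-115420119, minus strand: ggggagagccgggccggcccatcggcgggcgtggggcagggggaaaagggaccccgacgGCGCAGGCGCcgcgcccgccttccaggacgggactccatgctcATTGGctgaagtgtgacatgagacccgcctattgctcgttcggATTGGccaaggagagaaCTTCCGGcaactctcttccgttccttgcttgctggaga

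The Ndufb8 stretch holds none of the 4 motifs, Ndufa6 holds a CCAAT box, Ndufa8 an NRF1 match, and Atp5h an NRF1 match, an ETS match and 2 CCAAT boxes. RefSeq promoter windows, 250 bases before to 50 after the start, were matched for 61 of the 76 members (66 windows). The NRF1 motif stood in 21.2% of these windows, against 6.46% of 20611 windows of all measured genes, the ETS motif in 22.7% against 11.4%, YY1 in 9.09% against 1.85% and CCAAT in 37.9% against 37.7%. Split by the 24 h result, NRF1 stood in 3 of the 23 windows of members that fell and in 11 of the 43 windows of the others, and ETS in 5 of 23 and 10 of 43. The 3 windows with NRF1 are those of Ndufa8, Atp5h and Ndufa6, all among the 4 genes shown. The stretches shown thus overstate this motif among the members that fell. In Ndufa6 the NRF1 match is not wholly inside the stretch shown above. A match describes these letters only and is no measured binding site.

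Complex I had the most lower transcripts of the 4 complexes. At 24 h 2 of the 6 core subunits among its members fell (Ndufs8 and Ndufv2), 5 of 8 accessory subunits of the matrix arm and 7 of 17 accessory subunits of the membrane arm. Ndufa4, long listed with complex I and now assigned to complex IV, and its paralog Ndufa4l2 did not pass, with changes of -0.17 and -0.16. The median over the 33 genes was -0.26, with 31 values below 0.

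Ndufb8, an accessory subunit of the membrane arm, showed the lowest change of any member in the 24 h exposure comparison. Its log2 signals at 24 h were 6.71, 6.80 and 6.61 on the thalidomide arrays and 7.55, 7.34 and 7.45 on the control arrays. The groups lay apart, and the change was -0.74 ± 0.10 (SE, adjusted p = 0.000557), which passed in all 26 alternative settings and omissions of an array. At 48 h the signals were 6.70, 6.85 and 6.999 in thalidomide cultures and 7.30, 7.25 and 7.19 in control cultures, a change of -0.39 ± 0.10 (adjusted p = 0.0259). At 72 h they were 7.24, 7.26 and 6.97 against 7.25, 7.11 and 7.01, and the groups overlapped.

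Ndufb9, also of the membrane arm and, at a mean signal of 10.79, the brightest complex I member (Ndufs5 was the dimmest at 4.39), read 10.63, 10.72 and 10.66 on thalidomide arrays and 11.14, 11.04 and 11.02 on control arrays at 24 h (change -0.40 ± 0.06, adjusted p = 0.00216). Its 48 h values were 10.64, 10.56 and 10.55 in thalidomide cultures and 10.89, 10.88 and 11.03 in control cultures (-0.35 ± 0.06, adjusted p = 0.00555). In both comparisons all thalidomide arrays were below all controls. The dimmest member, Ndufs5, had 0.05 at 24 h and -0.01 at 48 h. A brighter probe set that it shares with Ndufs5-ps averaged 6.93 and gave -0.30 and -0.38. Neither passed (limma, adjusted p = 0.203 and 0.101 over all probe sets). For Ndufa6, a matrix-arm subunit of the LYR family that holds the acyl carrier protein, thalidomide arrays read 7.67, 7.85 and 7.91 and control arrays 8.51, 8.25 and 8.37 at 24 h. The change was -0.56 ± 0.10 (adjusted p = 0.00509), and -0.38 ± 0.10 at 48 h (adjusted p = 0.0428).

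Ndufa8, a subunit on the intermembrane-space face, had little spread within groups. It read 8.92, 8.89 and 8.92 in thalidomide cultures and 9.16, 9.19 and 9.22 in controls at 24 h (-0.28 ± 0.05, adjusted p = 0.0057). At 48 h the values were 8.80, 8.77 and 8.76 against 9.09, 9.13 and 9.19 (-0.36 ± 0.05, adjusted p = 0.00207), the smallest adjusted p of the complex at that time. A second, dimmer probe set for Ndufa8 gave -0.47 at 24 h and -0.22 at 48 h, on the same side of 0.

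The remaining complex I genes that fell at 24 h were Ndufa3, Ndufb5, Ndufc1, Ndufa7, Ndufs8, Ndufa1, Ndufa12, Ndufa9, Ndufv2 and Ndufa2, with changes between -0.40 and -0.22. Among the core subunits, Ndufs8, which carries iron-sulfur clusters, read 8.90, 8.81 and 8.89 in thalidomide cultures and 9.17, 9.14 and 9.20 in controls (-0.30 ± 0.07, adjusted p = 0.0173). The core subunits Ndufv1, which binds the flavin, and Ndufs1 had -0.11 and -0.24 without passing.

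At 48 h 8 complex I genes fell and all 8 had also fallen at 24 h: Ndufa8, Ndufa9, Ndufb9, Ndufa3, Ndufa1, Ndufb8, Ndufa6 and Ndufc1. They make up 24.2% of the complex, with 4.23% of all genes lower. Of the 8 genes, 6 belong to the membrane arm and 2 to the matrix arm, and 0 of the 6 core subunits passed. The membrane arm has more accessory members than the matrix arm, and a difference between the arms was not tested. Ndufa9, a matrix-arm subunit next to the quinone site, read 8.52, 8.49 and 8.57 in thalidomide cultures and 8.85, 8.84 and 8.89 in controls (-0.33 ± 0.06, adjusted p = 0.00406). Ndufa3 of the membrane arm read 10.01, 10.06 and 9.95 against 10.35, 10.37 and 10.36 (-0.35 ± 0.07, adjusted p = 0.01). Neither gene's groups overlapped.

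Ndufa11, a membrane-arm subunit, went the other way. Its 48 h signals were 8.88, 8.90 and 9.02 in thalidomide cultures and 8.43, 8.65 and 8.76 in control cultures, a change of 0.32 ± 0.09 (adjusted p = 0.0465). At 24 h they were 9.01, 8.86 and 8.90 against 8.55, 8.73 and 8.67 (0.27, adjusted p = 0.0846). The arrays were separated at both times, but the 48 h call held in 9 of 26 alternatives and in 5 of 18 omissions of an array, with adjusted p-values from 0.0118 to 0.187. A second, dim probe set for the gene gave 0.14 at 48 h (adjusted p = 0.573 over all probe sets).

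**Figure D2:**
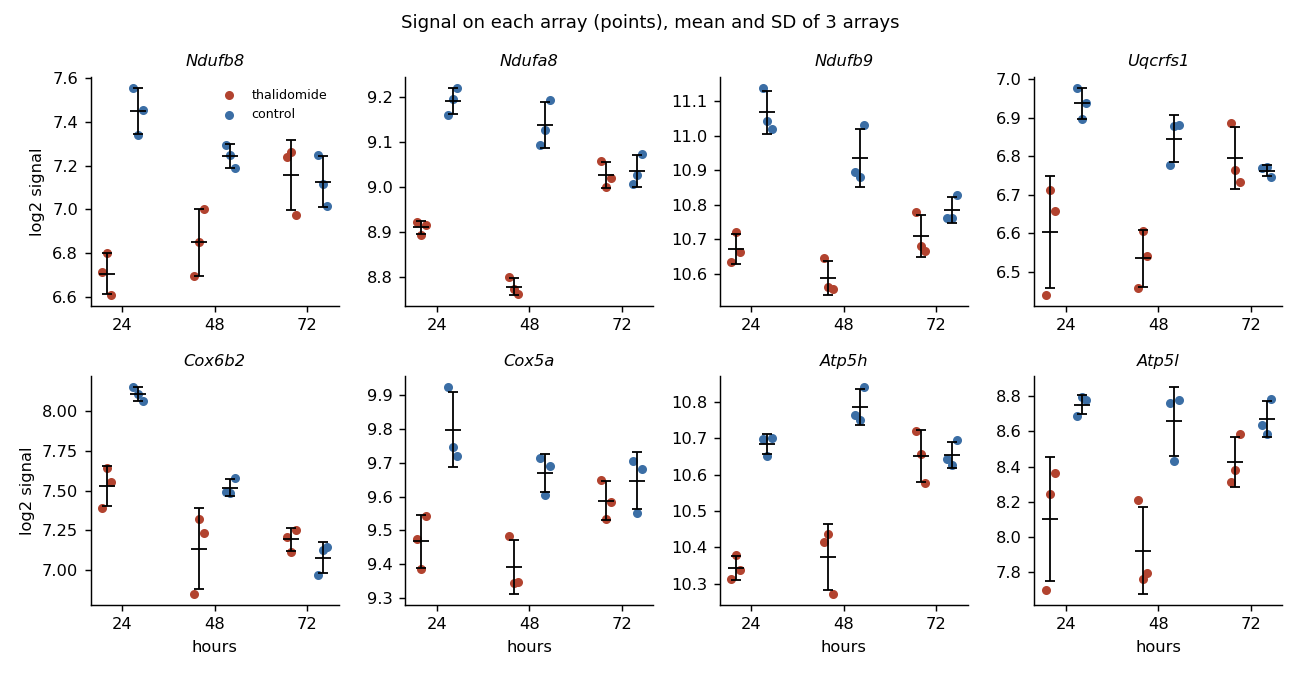
Log2 signal (vertical axis) of 8 members on every array by hours in culture, with thalidomide (red) left of control (blue). Points are arrays and bars the mean with SD of 3 arrays. Thalidomide arrays lie below all controls at 24 and 48 h in each panel, and the groups overlap at 72 h in all 8 panels except Atp5l.

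Complex III had 1 lower gene at each of 24 and 48 h, the same one, and its other members did not pass. This is 12.5% of the complex, with 5.43% of all genes lower at 24 h and 4.23% at 48 h. Uqcrfs1, the Rieske iron-sulfur protein that takes electrons from ubiquinol, read 6.44, 6.71 and 6.66 in thalidomide cultures and 6.98, 6.90 and 6.94 in controls at 24 h (-0.33 ± 0.07, adjusted p = 0.0133). At 48 h it read 6.46, 6.61 and 6.54 against 6.78, 6.88 and 6.88 (-0.31 ± 0.07, adjusted p = 0.0226). All thalidomide arrays lay below the controls at both times. The 24 h call was lost without control replicate 1 (adjusted p = 0.057) or 3 (0.0507) or thalidomide replicate 1 (0.0637), and over the 26 alternatives the adjusted p ran from 0.00298 to 0.122. At 48 h it was lost without control replicate 2 or 3 or thalidomide replicate 1 or 3, after cyclic loess and with the compared arrays alone, within a range of 0.00602 to 0.0784.

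The 2 core proteins of complex III, Uqcrc1 and Uqcrc2, which face the matrix, had 24 h changes of 0.06 and -0.19. The 4 small subunits Uqcrb, Uqcrh, Uqcrq and Uqcr11 had changes between -0.25 and -0.10 at 24 h and between -0.24 and 0.13 at 48 h. Uqcrb is the brightest gene of the complex, with a mean signal of 10.81. The pseudogene Uqcrh-ps1, the dimmest at 3.61, had the highest value of any member at 24 h (0.41 ± 0.25, adjusted p = 0.37). Medians over the 8 genes were -0.15 at 24 h and -0.16 at 48 h, and 0.04 at 72 h.

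In complex IV 4 of 17 genes fell at 24 h (23.5%, with 5.43% of all genes lower) and 3 at 48 h (17.6%, with 4.23%). Of these, 3 and 2 were among the 9 widely expressed subunits. Cox5a, a matrix-side subunit, read 9.47, 9.39 and 9.54 in thalidomide cultures and 9.92, 9.75 and 9.72 in controls at 24 h (-0.33 ± 0.07, adjusted p = 0.0145). At 48 h it read 9.48, 9.34 and 9.35 against 9.71, 9.60 and 9.69 (-0.28 ± 0.07, adjusted p = 0.037). The groups were apart at both times. Without control replicate 1 or thalidomide replicate 2 the 24 h adjusted p was 0.0761 and 0.0546, in a range of 0.00103 to 0.117 over the alternatives, and the 48 h call held in 13 of 18 omissions (0.00544 to 0.127).

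Cox7a2 and Cox8a, small membrane subunits of the common form of the enzyme, fell by 0.25 and 0.26 on the log2 scale at 24 h (adjusted p = 0.0396 and 0.0438). These 2 calls held in 12 and 9 of 26 alternatives, with adjusted p-values up to 0.211 and 0.134. Cox7b, another small subunit, read 9.43, 9.15 and 9.13 in thalidomide cultures and 9.61, 9.70 and 9.76 in controls at 48 h (-0.45 ± 0.13, adjusted p = 0.0425), a call that held in 12 of 26 alternatives (0.0144 to 0.304). Its 24 h change was -0.37 (adjusted p = 0.0904), and a second, dim probe set gave 0.12 at 24 h and -0.06 at 48 h. Cox4i1, the regulatory subunit and entry point of assembly, had -0.18 and -0.13 at the 2 times, and Cox6a1, the brightest gene of the complex, had -0.12 and -0.09, without passing.

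Among the 7 tissue-restricted isoforms of complex IV, Cox6b2 was the 1 that passed at 24 and 48 h. Cox6b2, known as the testis form of the subunit that bridges the dimer, read 7.39, 7.64 and 7.55 in thalidomide cultures and 8.15, 8.11 and 8.07 in controls at 24 h (-0.58 ± 0.10, adjusted p = 0.00375). At 48 h it read 6.84, 7.32 and 7.23 against 7.49, 7.49 and 7.58 (-0.39 ± 0.10, adjusted p = 0.0356). The arrays did not overlap at either time. The 24 h call held in all 26 alternatives, and the 48 h call in 18 (0.0118 to 0.135), being lost without control replicate 1, 2 or 3 or thalidomide replicate 1 or 3, after cyclic loess, with all probe sets tested and with the compared arrays alone. Its widely expressed partner Cox6b1 had -0.10 at 24 h and -0.04 at 48 h on overlapping arrays at both times.

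The muscle isoforms Cox6a2, Cox7a1 and Cox8b had 24 h changes of -0.04, -0.40 and -0.0043, none past the threshold. Cox4i2, the oxygen-sensitive lung form, and the testis forms Cox7b2 and Cox8c stayed within 0.08 of 0 at 24 h. Cox7b2, with a mean of 2.96, is the dimmest of all members. Cox7a2l, a factor that joins complexes III and IV into supercomplexes, had -0.18 at 24 h and -0.20 at 48 h (adjusted p = 0.141 and 0.0853).

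**Figure D3:**
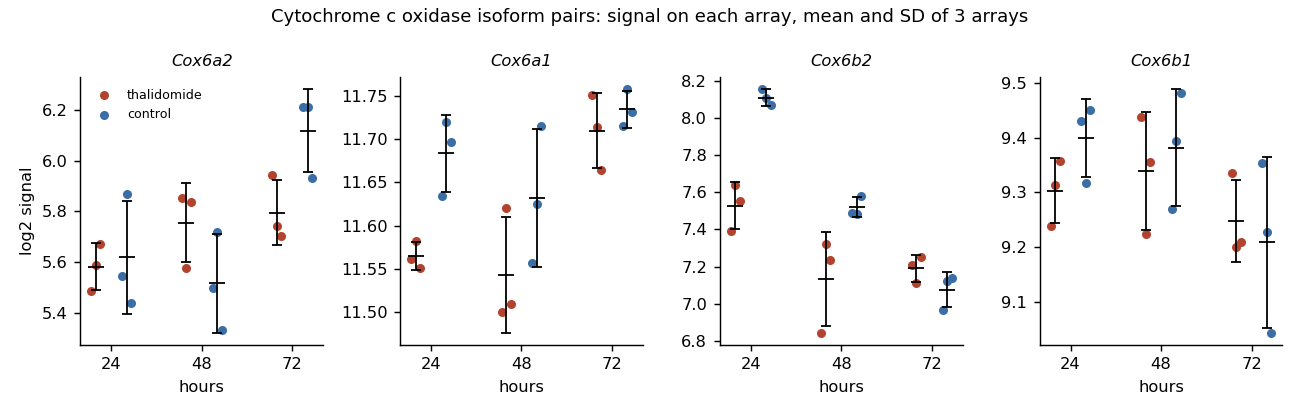
Log2 signal of the tissue-restricted isoforms Cox6a2 and Cox6b2 and their widely expressed partners Cox6a1 and Cox6b1 on every array by hours in culture, with thalidomide (red) left of control (blue) and bars for the mean with SD of 3 arrays. Vertical scales differ between panels. Cox6b2 is lower after thalidomide at 24 and 48 h and is lower at 72 h than at 24 h in controls, and the Cox6a2 control arrays of 72 h lie at 5.93 to 6.21.

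Complex V had 4 of 18 genes lower at 24 h (22.2%, with 5.43% of all genes lower) and 2 at 48 h (11.1%, with 4.23%). Of the 5545 brightest genes 13.3% were lower at 24 h and 9.41% at 48 h. The genes that fell belong to the stalks and the membrane part. Atp5h, subunit d of the peripheral stalk that holds the head still, read 10.31, 10.38 and 10.34 in thalidomide cultures and 10.70, 10.65 and 10.70 in controls at 24 h (-0.34 ± 0.06, adjusted p = 0.00483). At 48 h it read 10.41, 10.44 and 10.27 against 10.76, 10.75 and 10.84 (-0.41 ± 0.06, adjusted p = 0.00218). Each group of 3 was well apart from the other. A second, much dimmer probe set for Atp5h gave -0.14 at 24 h and -0.18 at 48 h (adjusted p = 0.668 and 0.515 over all probe sets). The 24 h call was lost when probe sets were averaged (adjusted p = 0.0919, range 4.73e-05 to 0.0919 over the alternatives).

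Atp5l, subunit g of the membrane part that helps pair ATP synthases into dimers, had the lowest exposure change of any member at 48 h. It read 8.21, 7.76 and 7.80 in thalidomide cultures and 8.76, 8.43 and 8.78 in controls (-0.73 ± 0.15, adjusted p = 0.0115). At 24 h the values were 7.70, 8.24 and 8.36 against 8.69, 8.79 and 8.78 (-0.65 ± 0.15, adjusted p = 0.0185). The thalidomide arrays spread widely but stayed below the controls. Without thalidomide replicate 1 or control replicate 3 of 24 h the adjusted p was 0.0851 and 0.0675 (0.00557 to 0.0986 over the alternatives), and without thalidomide replicate 2 or 3 of 48 h it was 0.0577 and 0.0512 (0.00343 to 0.0577).

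Atp5d, the delta subunit of the central stalk, read 8.92, 8.63 and 8.65 in thalidomide cultures and 9.28, 9.26 and 9.23 in controls at 24 h (-0.53 ± 0.11, adjusted p = 0.0108), and its second probe set gave -0.27 (adjusted p = 0.023 over all probe sets). At 48 h its change was -0.23 (adjusted p = 0.236). Atp5md, a small subunit of the membrane part, passed at 24 h (-0.32 ± 0.09, adjusted p = 0.0465), a call that held in 5 of 26 alternatives (0.0155 to 0.228).

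Neither of the large subunits of the catalytic head passed. Atp5b, the catalytic beta subunit and brightest gene of the complex, read 11.64, 11.68 and 11.66 in thalidomide cultures and 11.80, 11.83 and 11.79 in controls at 24 h, separated arrays with a change of -0.15 ± 0.05 (adjusted p = 0.112). Atp5a1, the alpha subunit, read 10.93, 10.99 and 10.84 against 10.90, 10.90 and 10.90 (0.02 ± 0.06), on overlapping arrays. The 3 c-ring genes Atp5g1, Atp5g2 and Atp5g3, whose protein products are the same mature subunit, had 0.18, -0.16 and -0.19 at 24 h, none past the threshold. A difference between head and stalk genes was not tested.

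At 72 h 0 of 76 members passed, while 0.00902% of all genes did. At an unadjusted p under 0.05 there were 2 members, both lower (9.12% of all genes). On 4 members, Atp5l among them, every thalidomide array lay below every control array (7.51% of all genes). The smallest p in each complex belonged to Ndufs3 (-0.13, adjusted p = 0.615), Uqcrc1 (0.12, 0.712), Cox6a2 (-0.32, 0.414) and Atp5g1 (-0.29, 0.512). Medians were -0.0019 in complex I, 0.04 in complex III, -0.02 in complex IV and -0.0042 in complex V. At this time the 10 cardiac markers had mean levels of 6.90 to 7.86 on thalidomide arrays and 8.31 to 8.35 on control arrays, with 1 of 10 lower (Ryr2) and a median of -0.85. The 6 neural markers, 0 of which passed, had mean levels of 6.52 to 7.06 on thalidomide arrays and 6.00 to 6.40 on control arrays, and the part of either list in the members' values was not tested.

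The exposure effect itself was compared between times. From 24 to 72 h it differed for 2 members, among 0.496% of all genes: Ndufb8, by 0.78 ± 0.14 (adjusted p = 0.0257), and Cox6b2, by 0.70 ± 0.14 (adjusted p = 0.0439). Both effects were below 0 at 24 h and near 0 at 72 h (0.03 and 0.12). The Ndufb8 difference held in 20 of 26 alternatives, with adjusted p-values from 0.0612 to 0.074 without control replicate 1 or 3 or thalidomide replicate 1 of 24 h, or without control replicate 3 or thalidomide replicate 1 of 72 h. The Cox6b2 difference held in 7 of 26 and in 2 of 18 omissions (0.00695 to 0.105). Without any 1 of the 5 arrays named for Ndufb8, 0 members passed.

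From 24 to 48 h 0 members differed (0% of all genes by limma, and 6 members at an unadjusted p under 0.05, as 7.67% of all genes). The smallest p-values belonged to Ndufb8 (0.35), Uqcr11 (0.23), Cox7a2 (0.15) and Atp5o (0.38). From 48 to 72 h 0 members passed (0.0947% of all genes), with 21 at an unadjusted p under 0.05 (14% of all genes), 20 of them with a value above 0. The smallest adjusted p-values there were those of Ndufa8 (0.35 ± 0.08, adjusted p = 0.068) and Atp5h (0.41 ± 0.09, adjusted p = 0.0678). The smallest in complexes III and IV were those of Uqcrfs1 (0.34, adjusted p = 0.156) and Cox6b2 (0.50).

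**Figure D4:**
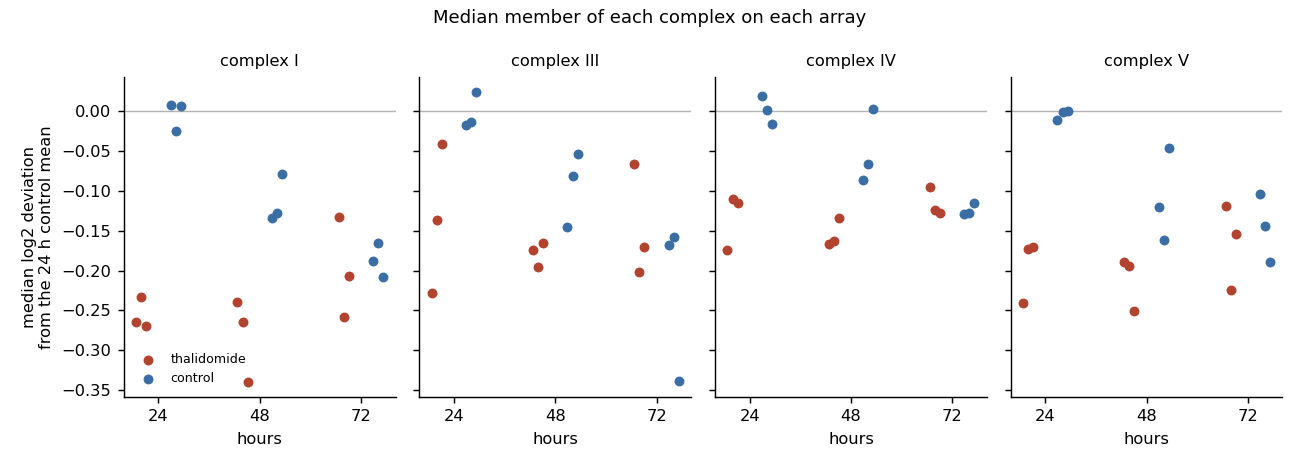
For each array, the median over a complex's genes of the log2 deviation from the mean of the 24 h controls, by hours in culture, with thalidomide (red) left of control (blue). Every thalidomide array of 24 and 48 h lies below every control array of its time in all 4 complexes, and control arrays of 48 and 72 h lie below those of 24 h in complexes I, III and V.

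Read by array, the median complex I gene lay at -0.26, -0.23 and -0.27 on the 24 h thalidomide arrays and at -0.24, -0.27 and -0.34 on those of 48 h, relative to the 24 h controls. The 48 h controls lay at -0.13, -0.13 and -0.08 on that scale, and at 72 h the values were -0.13, -0.26 and -0.21 in thalidomide cultures and -0.19, -0.17 and -0.21 in controls. The 2 groups were apart at 24 and 48 h and overlapped at 72 h.

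Helper genes that build the complexes were looked at beside the subunits, from lists of known assembly factors. At 24 h 10 of 17 complex I assembly factors fell and 0 rose (median -0.32), and 2 of 6 for complex III, 5 of 19 for complex IV and 2 of 4 for complex V fell. Over all genes 5.43% were lower and 1.42% higher at that time. Foxred1, an oxidoreductase-like complex I assembly factor, averaged 6.79 ± 0.24 in thalidomide cultures and 7.61 ± 0.08 in controls (SD, n = 3 each), a change of -0.82 ± 0.09 (adjusted p = 0.000205). Ndufaf7, a methyltransferase that acts on a complex I core subunit, had -0.38 ± 0.07 (adjusted p = 0.00611).

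For complex III the assembly factors Uqcc3 and Ttc19 fell by 0.50 and 0.25 on the log2 scale. For complex IV the copper chaperone Cox17 (-0.43) and Pet100 (-0.48) had the smallest adjusted p-values (0.00211 and 0.0029). Tmem242 and Tmem70, which help build the c-ring of complex V, fell by 0.39 each. At 48 h the counts were 3 of 17, 0 of 6, 2 of 19 and 1 of 4, with 4.23% of all genes lower. Among those that fell were Foxred1 at -0.74 ± 0.09, Ndufaf8 at -0.34, Coa6, a copper delivery factor, at -0.39, Cox20 at -0.43 and Tmem242 at -0.37. No assembly factor passed at 72 h, when 0.00902% of all genes did. None rose at any of the 3 times, while 1.42%, 1.85% and 0% of all genes were higher.

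**Figure D5:**
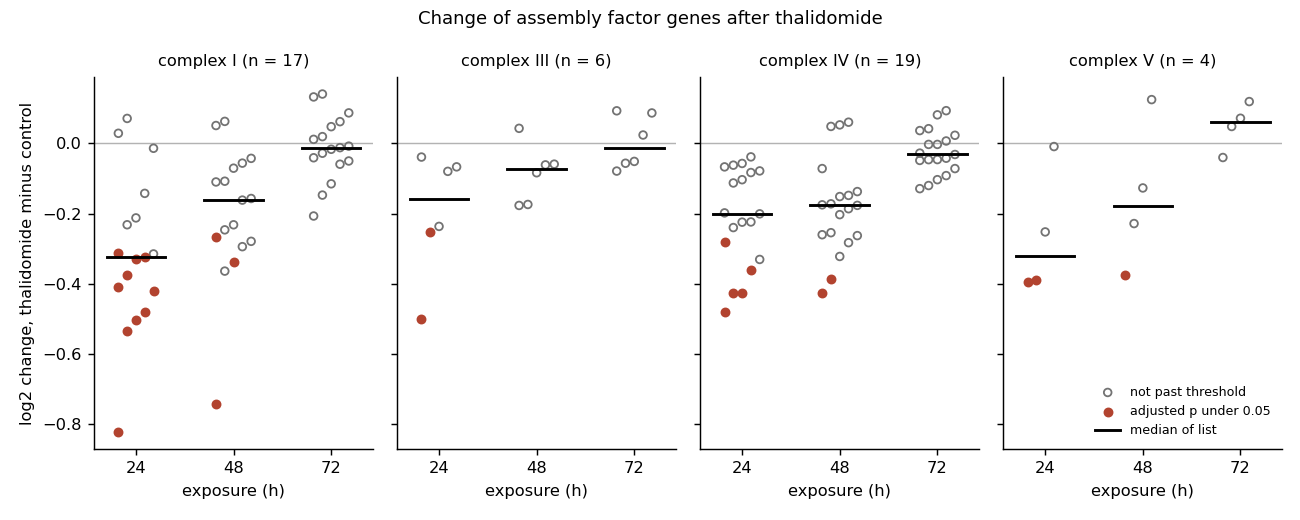
Each point is 1 assembly factor gene of the complex named above the panel, placed by its log2 change (thalidomide minus control, 3 arrays a group) after 24, 48 or 72 h. Filled points passed an adjusted p of 0.05 and bars mark the median of the list, which was -0.32 for complex I at 24 h and -0.01 at 72 h.

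Of 11 further chain members outside the naming rule 4 fell at 24 h and 4 at 48 h (5.43% and 4.23% of all genes lower). Sdhc, a membrane anchor of complex II, averaged 7.50 ± 0.08 in thalidomide cultures and 8.77 ± 0.03 in controls at 24 h (SD, n = 3 each), a change of -1.27 ± 0.08 (adjusted p = 8.21e-07), beyond the exposure change of any member. It had -1.36 ± 0.08 at 48 h and -0.10 at 72 h (adjusted p = 0.803). Higd2a, an assembly helper of complex IV, had -0.59 at 24 h and -0.58 at 48 h. Among 16 regulators of mitochondrial gene expression, Tfam and Tfb2m, which act in mitochondrial transcription, fell at 24 h by 0.32 and 0.42 on the log2 scale, and Nrf1, a nuclear activator of respiratory genes, had -0.03 (adjusted p = 0.868). Of 17 citric acid cycle genes Idh3a (-0.48) and Sucla2 (-0.21) fell at 24 h and 0 at 48 h. For the regulators and the citric acid cycle the same shares of all genes apply, 5.43% lower at 24 h and 4.23% at 48 h.

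In control cultures 24 members fell between 24 and 72 h (31.6%, with 14.3% of all genes lower), 1 rose (13.1% of all genes higher) and 51 did not pass. Calls in either direction made up 32.9% of members and 27.5% of all genes. Of the 5545 brightest genes 24.6% fell, and 20 of the 47 members there did. By complex 15 of 33, 2 of 8, 3 of 17 and 4 of 18 fell, and the median over all members was -0.17, against -0.0399 over all genes. The 24 h control arrays also enter the 24 h exposure comparison, so these sets of changes are not independent. Without control replicate 3 of 72 h the count of 25 was 15.

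Cox6b2 had the largest decline of a member, with control signals of 8.15, 8.11 and 8.07 at 24 h, 7.49, 7.49 and 7.58 at 48 h and 6.97, 7.12 and 7.14 at 72 h. The 3 times did not overlap, and the change of 72 h against 24 h was -1.03 ± 0.10 (adjusted p = 9.7e-07). In thalidomide cultures it read 7.39, 7.64 and 7.55 at 24 h, 6.84, 7.32 and 7.23 at 48 h and 7.21, 7.11 and 7.25 at 72 h. Cox6a2, the muscle form of another complex IV subunit, was the gene that rose in controls, with 6.21, 6.21 and 5.93 at 72 h against 5.55, 5.87 and 5.44 at 24 h (0.50 ± 0.13, adjusted p = 0.00623). Its partner Cox6a1 had 0.05, and Cox7a1 and Cox8b had -0.19 and -0.06.

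In complex I the smallest adjusted p-values of this comparison were those of Ndufs8 (-0.51 ± 0.07, adjusted p = 4.02e-05), Ndufa12 (-0.49), Ndufs4 (-0.47) and Ndufc2 (-0.37). Ndufs4, a late-joining matrix-arm subunit, read 8.38, 8.38 and 8.11 at 72 h and 8.83, 8.67 and 8.78 at 24 h, while its 24 h exposure change was -0.11 (adjusted p = 0.514). Complex III had Uqcrh (-0.31) and Uqcrc2 (-0.18), and complex IV had Cox8a (-0.36) and Cox7a2 (-0.24) besides Cox6b2. Complex V had Atp5k (-0.38), Atp5o (-0.33), Atp5md (-0.27) and Atp5g2 (-0.20). Step by step 7 members fell and 0 rose from 24 to 48 h (6.7% of all genes lower, 6.93% higher, 13.6% in all), and from 48 to 72 h 2 fell (2.9%) and Cox6a2 rose (3.62% higher, 6.53% of all genes in either direction). Without control replicate 2 of 48 h the first count was 3, and without control replicate 3 of 48 h the second, 3 in all, was 1.

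In thalidomide cultures 5 members rose between 24 and 72 h (14.4% of all genes higher) and 4 fell (10.6% lower, 25.1% in either direction). The 5 were Ndufa3 (0.39), Ndufb8 (0.45), Ndufa1 (0.46), Atp5h (0.31) and Atp5d (0.54), and the 4 were Ndufs4 (-0.36), Ndufa4l2 (-0.49), Cox6b2 (-0.34) and Atp5a1 (-0.20). This comparison shares the 24 h thalidomide arrays with the exposure comparison of that time. Ndufs4 thus fell with time in both cultures, to 8.28, 8.30 and 8.28 at 72 h against 8.61, 8.76 and 8.57 at 24 h in thalidomide cultures.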

How the data were processed

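For each probe set of the Affymetrix array the authors deposited 1 log2 signal per sample. The submitters' processing notes name RMA and the program Affymetrix Expression Console 1.3. RMA subtracts background and quantile normalizes, so changes are relative within an array. The build behind the authors' probe annotation is not stated in the sources used here. Of 41345 probe sets, 23521 had 1 gene symbol in the platform annotation, 1814 several and 16010 none listed. The brightest probe set stood for each of 22180 genes. Arrays were grouped by their labels, and their number limits the precision.

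One mean per group was fitted over all 18 arrays with limma 3.58.1 in R 4.3.3 (lmFit and eBayes, 12 residual degrees of freedom). Tests were two-sided, with Benjamini-Hochberg adjustment over 22180 genes and a threshold of 0.05. Alternatives were cyclic loess, a signal filter, eBayes with trend and robust, array weights, only the compared arrays, all or averaged probe sets, a replicate block, and each array left out. The fit was tested on simulated data, and no outcome of that test is given or used here.

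Named in each complex were up to 4 passing members with the smallest adjusted p per direction (otherwise the smallest p), the isoform pairs, the brightest and dimmest member, and up to 2 passing genes per further list. Any other member named was chosen after its values were seen. Members and lists were chosen with earlier results of these data known. Same-numbered replicates did not deviate together (r = -0.14 to 0.118 over 9 pairs, 1 over 0.1), so the numbers were not taken to pair arrays. Promoter sequences and their coordinates are RefSeq's, on GRCm38.p6.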

Additional observations from a re-analysis of the deposited data

Results flagged for a closer look

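The exposure effect of 2 members differed between times by the test of the difference itself. For Ndufb8 the effect at 72 h minus that at 24 h was 0.78 on the log2 scale (limma, adjusted p = 0.0257). For Cox6b2 it was 0.70 (adjusted p = 0.0439). Both groups of each time have 3 arrays, and the thalidomide arrays of 72 h lack the re-analysis tag that those of 24 h carry, whose part in the difference was not tested.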

How the results depend on the processing

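No result changed its direction past the threshold under any alternative. Members called at 24 h (23) numbered 13 after cyclic loess, 40 when only genes of at least median signal were tested, 36 with trend and robust and 2 with only the compared arrays, and 9 to 24 with an array left out. At 48 h (15) the counts were 9, 23, 23 and 0 in that order, 9 with all probe sets tested, and 6 to 15. For controls of 48 h against 24 h (7) they were 14 with the signal filter, 13 with trend and robust, 11 with array weights and 3 to 8, and for 72 h against 48 h (3) 5, 7 and 1 to 4. For 72 h against 24 h controls (25) the range was 15 to 28. The effect difference from 24 to 72 h (2) gave 1 after cyclic loess, 13, 12, 0 with only the compared arrays, 1 with all probe sets and 0 to 2, and from 48 to 72 h (0) 4, 5 and 2 with array weights. Over all genes, the compared arrays alone called 121 genes at 24 h and 163 at 48 h, against 1521 and 1349. Fewer genes or arrays entered the filtered and reduced fits, and the cause of these moves was not tested. Beyond the compared arrays and cyclic loess at 24 and 48 h, no shares over all genes are given for these fits. The other member counts thus do not show a change particular to the members. With the replicate number as a block 20 members passed at 24 h, 11 at 48 h and 0 at 72 h, against 23, 15 and 0 without pairing. Each group has 3 arrays, and dim members such as Cox7b2 have little signal over background.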
